A study of Mus musculus with 7 samples.

Results

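Pkm, Ldha and Tpi1 are genes of glycolysis, the pathway that splits glucose into pyruvate and, through lactate dehydrogenase, turns pyruvate into lactate. They were followed in cultured mouse neural stem cells in which KAP1 was reduced. The members were fixed by name, after earlier results of these data had shown that they pass the threshold, and all 3 are among the 3389 genes of the authors' deposited table. Within a list of 28 genes for the enzymes of glycolysis and lactate dehydrogenase, 4 genes are listed, namely these 3 and Ldhb, and 24 are not. Over all genes given an adjusted p, 26.3% are listed.

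The cells came from the subventricular zone, a niche of the mouse brain that makes neurons after birth, and were grown in Neurobasal medium with B27, EGF and FGF-2. The labels describe 4 shKAP1 samples, nucleofected with short hairpin RNA against KAP1, and 3 control samples, and the deposited table compares these conditions. The labels name neither the hairpin sequence nor what the control cells received, and give no strain, sex or age of the mice, and no statement on whether samples came from separate cultures. KAP1 is the protein of Trim28, a corepressor brought to DNA by KRAB zinc finger proteins.

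Glycolysis runs in the cytosol and yields ATP, NADH and carbon for nucleotides, lipids and amino acids. In neural stem cells it is known to be active during proliferation, whereas neurons rely more on oxidation of pyruvate in mitochondria. Triose-phosphate isomerase, the product of Tpi1, interconverts the triose phosphates made by aldolase. Pyruvate kinase, the product of Pkm in most tissues, makes pyruvate and ATP from phosphoenolpyruvate. The A subunit of lactate dehydrogenase, from Ldha, favours the step from pyruvate to lactate, and the B subunit, from Ldhb, the reverse step.

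In GRCm38, Pkm (ENSMUSG00000032294.17) lies on chromosome 9 at 59656368 to 59679375, plus strand. Ldha (ENSMUSG00000063229.15) lies on chromosome 7 at 46841475 to 46855627, plus strand. Tpi1 (ENSMUSG00000023456.16 in the file) lies on chromosome 6 at 124810586 to 124814296, minus strand, by GENCODE M21, where its identifier ends in version 15.

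The deposited values are per gene, so they do not tell apart the forms of Pkm messenger RNA. Pkm has a pair of mutually exclusive coding exons, of which the upstream one gives the PKM1 form typical of adult muscle and neurons, and the downstream one the PKM2 form typical of proliferating cells. Both are shown because a gene-level fold change sums reads from transcripts with either exon, and because splicing factors known to choose between them are described further on. Each is 167 bases long and is exon 9 of its M21 transcript, on the plus strand of chromosome 9. The exon of Pkm-202 (PKM1) spans chr9:59675029-59675195 and the exon of Pkm-201 (PKM2) chr9:59675568-59675734. They share the base at 103 of 167 positions (61.7%), and capitals mark the 64 positions where they differ.
Exon of Pkm-202 (PKM1): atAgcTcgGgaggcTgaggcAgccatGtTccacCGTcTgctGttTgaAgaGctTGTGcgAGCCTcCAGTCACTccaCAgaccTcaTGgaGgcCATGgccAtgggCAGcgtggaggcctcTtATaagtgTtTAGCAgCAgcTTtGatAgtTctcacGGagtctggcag
Exon of Pkm-201 (PKM2): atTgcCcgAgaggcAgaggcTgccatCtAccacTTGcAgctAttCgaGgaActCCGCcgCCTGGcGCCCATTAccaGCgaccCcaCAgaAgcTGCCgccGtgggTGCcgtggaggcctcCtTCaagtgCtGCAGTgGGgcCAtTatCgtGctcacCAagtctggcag

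All 3 members were lower in shKAP1, by small amounts. The change of level in shKAP1, from the authors' deposited table, was -17.3% for Pkm, -15.4% for Ldha and -11.5% for Tpi1. These are estimates of the authors' fit, and the sources do not say whether all 4 shKAP1 and 3 control samples entered it. The table gives no value per sample, so overlap between the groups cannot be read from it, and the standard error (SE) of the log2 fold change stands in for replicate error. The genes were chosen because they pass the adjusted p threshold, so the values below are a description. In RNA from whole cultures, fewer cells of a type and less RNA per cell cannot be told apart.

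The authors' deposited table puts Pkm at -0.27 on the log2 scale (SE 0.05; DESeq2 adjusted p = 7.22e-06), with 114123 mean normalized counts over all samples of the fit. Its level in shKAP1 was 82.7% of that in control, with a 95% interval of 76.9 to 89.0. The authors' deposited table puts Ldha at -0.24 on the log2 scale (SE 0.09; DESeq2 adjusted p = 0.0315), with 37105 mean normalized counts. Its level in shKAP1 was 84.6% of that in control, with an interval of 74.8 to 95.6.

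The authors' deposited table puts Tpi1 at -0.18 on the log2 scale (SE 0.07; DESeq2 adjusted p = 0.0486), with 26928 mean normalized counts. Its level in shKAP1 was 88.5% of that in control, with an interval of 80.5 to 97.4. The intervals of the 3 members overlap one another. Overlap is no test of a difference, and none between members was made, so their sizes are not ordered here. Pkm ranks 702 among the 3389 listed genes by adjusted p, Ldha 3036 and Tpi1 3367. The table ends at an adjusted p of 0.0499, and 21 listed genes have a larger adjusted p than Tpi1, whose 0.0486 lies just inside the threshold. Values just outside it are not in the table.

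In the authors' deposited table Trim28 itself stood at -1.17 (SE 0.05; DESeq2 adjusted p = 1.78e-101), which leaves 44.5% of the control level. The numerator of the fold change is not named in the table; the sign was taken to be negative for genes lower in shKAP1, since Trim28, the target of the hairpin, is negative. The table lists 26.3% of the 12905 genes given an adjusted p, with 13.7% of them lower and 12.6% higher in shKAP1. Since the 3 members were named for being listed, nothing is read from their share. Under stricter rules the calls of Ldha and Tpi1 fell away. Pkm alone remained at an adjusted p under 0.01, a limit at which 9.51% of genes were lower, and at the Bonferroni limit, at which 4.15% were. No member had a 95% interval wholly beyond 1.2-fold, as 2.48% of genes did on the lower side, or a 2-fold fall, as 0.287% did. The median listed gene had an absolute log2 fold change of 0.29, larger than the absolute values of all 3 members. That median covers listed genes of every abundance. Among other listed genes within 1.5 times the member's mean normalized count, the median was 0.31 for Pkm, 0.20 for Ldha and 0.20 for Tpi1.

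The members are abundant transcripts. Pkm has the 12th highest mean normalized count of the 3389 listed genes, Ldha ranks 81 and Tpi1 128, against a median of 2884.6 over listed genes. Per kilobase of the longest principal transcript in M21 (2432 bases for Pkm, 1766 for Ldha and 1607 for Tpi1), the mean normalized count was 46926 for Pkm, 21011 for Ldha and 16757 for Tpi1. On this scale Pkm was 2.23 times as abundant as Ldha and 2.80 times as abundant as Tpi1. These levels are averages over both groups.

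**Figure D1:**
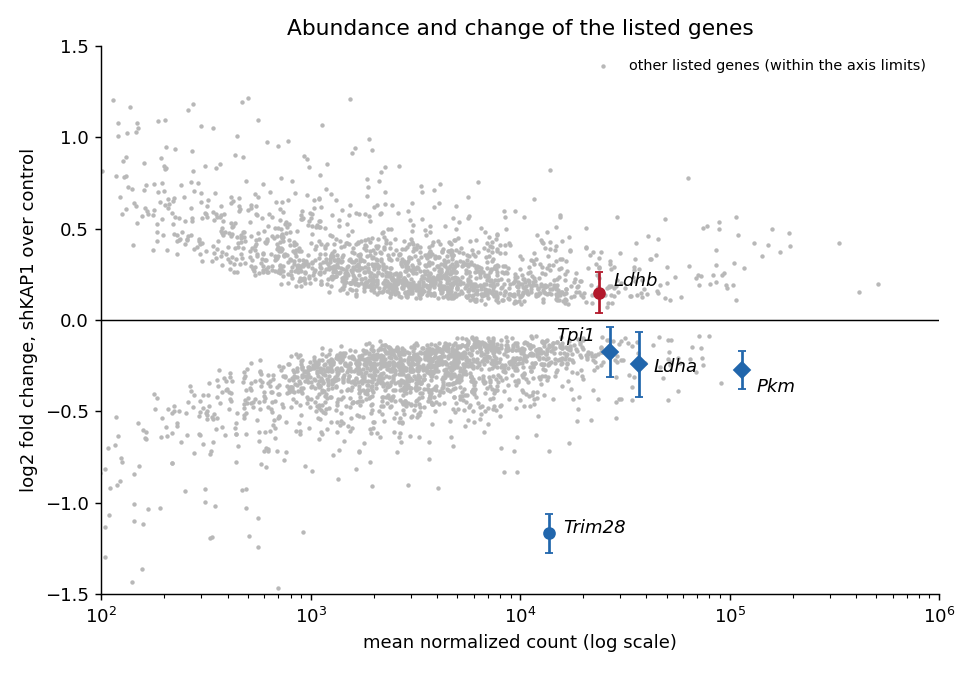
Log2 fold change, shKAP1 over control, against mean normalized count on a log axis, for listed genes with counts from 100 and changes within 1.5 on the log2 scale (grey points). Diamonds are Pkm, Ldha and Tpi1, circles Ldhb and Trim28, and bars are 95% intervals. The 3 members lie at the abundant end with small negative values, Pkm at 114123 counts and -0.27, and Trim28 lies far below them at -1.17.

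Among other listed genes whose mean normalized count was within 1.5 times that of Pkm, 2 were lower and 22 higher in shKAP1. Pkm was thus 1 of 3 listed genes of that abundance that were lower, and 14 of those 24 genes had a larger absolute change. Around Ldha the split was 40 lower and 51 higher, and 31 of the 91 genes had a larger absolute change. Around Tpi1 it was 71 lower and 70 higher, and 90 of the 141 genes had a larger absolute change. These counts describe listed genes, which were all selected by the same threshold.

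The error of the fold change differed among the members. The SE of Ldha was 0.0904, against a median of 0.0458 among the 91 other listed genes of like abundance, of which 7 had a larger SE. For Tpi1, 17 of 141 genes of like abundance had a larger SE than its 0.0705, against a median of 0.0485. For Pkm, 10 of 24 had a larger SE than its 0.0539, against a median of 0.0523. The adjusted p of Pkm is far smaller than that of Ldha although their fold changes are alike, and the SE of Ldha is the larger. Which libraries carry the spread of Ldha cannot be read from a table without sample columns.

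**Figure D2:**
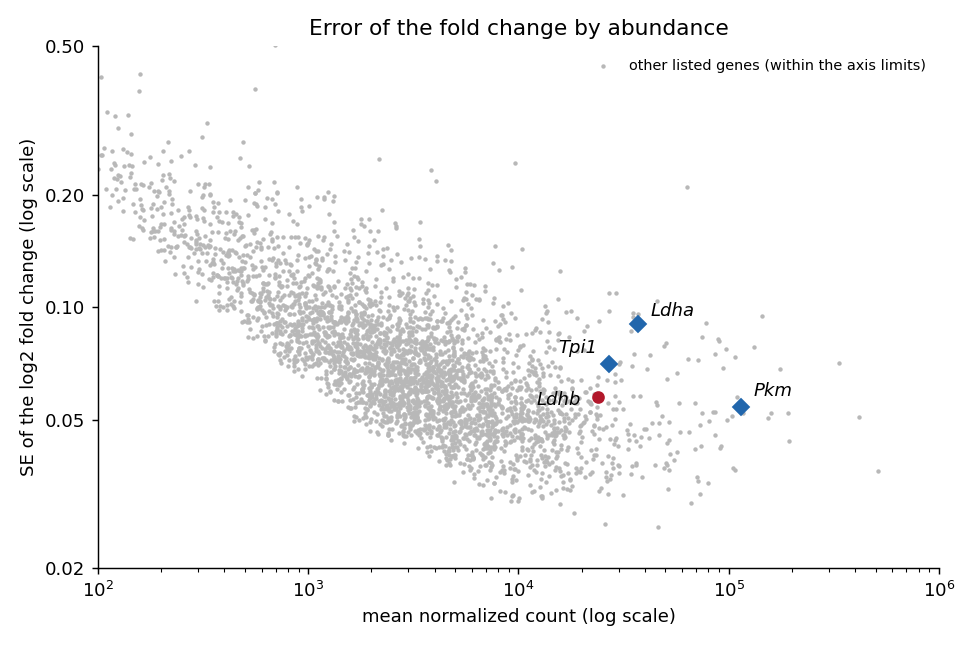
Standard error of the log2 fold change against mean normalized count, both on log axes, for listed genes with counts from 100 and errors of 0.02 to 0.5 (grey points). Diamonds are Pkm, Ldha and Tpi1 and the circle is Ldhb. Ldha, at an SE of 0.09, and Tpi1, at 0.07, lie above most genes of their abundance, and Pkm, at 0.05, lies in the middle of its neighbours.

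Across the pathway, 3 of its 11 steps, counted here from hexokinase to lactate dehydrogenase, have a listed gene, and 8 have none. The 4 listed genes are 14.3% of the 28, where 26.3% of all genes with an adjusted p are listed, and the 28 include isozymes that may have received no adjusted p. No gene of the hexokinases (Hk1, Hk2, Hk3 and Hkdc1), which trap glucose in the cell, is listed, nor Gpi1, which makes fructose phosphate. The phosphofructokinase genes Pfkl, Pfkm and Pfkp, whose enzyme catalyses the committed step, and the aldolase genes Aldoa and Aldoc are not listed. Below Tpi1, none of Gapdh, Gapdhs, Pgk1, Pgk2, Pgam1, Pgam2 or the enolase genes Eno1, Eno1b, Eno2, Eno3 and Eno4 is listed, and at the last steps Pklr, Ldhc and Ldhal6b are not. Several of these are isozymes known from other tissues, such as Pklr in liver, Pgam2 and Eno3 in muscle and Pgk2, Gapdhs and Ldhc in testis. A gene can be missing because its adjusted p was too large or because it was given none, so neither its abundance nor its fold change is known here.

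The table does hold small changes of abundant genes. Of the 128 listed genes with a mean normalized count at or above that of Tpi1, 35 had a smaller absolute log2 fold change than Tpi1. The smallest was 0.09, for Qk. The smallest absolute Wald statistic listed, the log2 fold change divided by its SE, is 2.48, with -2.49 for Tpi1, -2.68 for Ldha and -5.07 for Pkm.

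Lactate dehydrogenase is the only step with more than 1 listed gene, and its 2 listed genes had opposite signs. The authors' deposited table puts Ldhb at 0.15 on the log2 scale (SE 0.06; DESeq2 adjusted p = 0.0386), with 23897 mean normalized counts. Its level in shKAP1 was 110.8% of that in control, with an interval of 102.5 to 119.8. Ldha stood 0.39 below Ldhb on the log2 scale. The difference itself was not tested, since the table has no sample columns, and every listed gene has a 95% interval clear of 0 by the way the table was made. Per kilobase the mean normalized count was 18326 for Ldhb, so that the A gene was 1.15 times as abundant as the B gene when averaged over all samples.

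Genes next to glycolysis were mostly not listed, as are most genes with an adjusted p, of which 26.3% are listed. These lists are short, so nothing is read from their counts. Of 8 genes of glucose uptake, Slc2a10, a member of the facilitative glucose transporter family, was lower at -0.54 (SE 0.13) in the authors' deposited table, with a mean normalized count of only 357.4, and Slc2a1 and Slc2a3, the main transporters of brain cells, are not listed. Of 6 genes of lactate transport, Slc16a7, which encodes the monocarboxylate transporter MCT2, was higher at 0.47 (SE 0.18; DESeq2 adjusted p = 0.0348) by the authors' deposited table, at a count of 222.0. None of 5 genes that set fructose-2,6-bisphosphate, the activator of phosphofructokinase, is listed. Of 8 genes of the pentose phosphate pathway, G6pdx, its entry enzyme, was higher at 0.23 (SE 0.06) in the authors' deposited table.

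Most listed genes that take pyruvate onward in mitochondria had the sign opposite to that of Pkm, Ldha and Tpi1, as did Ldhb. Pkm, Ldha and Tpi1 are the listed glycolysis genes that were lower, so nothing is read from their shared sign. Of 13 genes of pyruvate entry, 7 were higher and 1 lower, and the other 5 are not listed. The median over the listed ones was 0.18 on the log2 scale. They include Mpc1 at 0.19 (SE 0.06) and Mpc2 at 0.20 (SE 0.06), the subunits of the mitochondrial pyruvate carrier, in the authors' deposited table. Dlat, a subunit of pyruvate dehydrogenase, stood at 0.31 (SE 0.07; DESeq2 adjusted p = 1.13e-04) by the authors' deposited table. Of the phosphatases that activate the enzyme, Pdp1 was at 0.38 (SE 0.11) and Pdp2 at -0.59 (SE 0.10) in the authors' deposited table. The kinase genes Pdk1, Pdk2, Pdk3 and Pdk4, whose products inhibit it, are not listed.

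Of 15 genes of the citric acid cycle, 7 were higher and 1 lower, and the other 7 are not listed. The median over the listed ones was 0.15 on the log2 scale. Idh3b, a subunit of isocitrate dehydrogenase, stood at 0.32 (SE 0.05; DESeq2 adjusted p = 4.30e-09), the succinate dehydrogenase subunit gene Sdhc at 0.18 (SE 0.04) and Suclg2 at -0.14 (SE 0.04) in the authors' deposited table. Pcx, the pyruvate carboxylase that makes oxaloacetate from pyruvate, was the single listed gene of 7 in gluconeogenesis. It stood at 0.66 (SE 0.09; DESeq2 adjusted p = 8.57e-13) by the authors' deposited table, 158.2% of the control level. Its median transcript GC content, 57.3%, lies in the highest quintile over listed genes, in which 29.9% were lower. The part of base composition in the higher Pcx was not tested. The listed genes of pyruvate entry and of the cycle together were 14 higher and 2 lower of 28, where 12.6% of all genes with an adjusted p were higher and 13.7% lower. No test of the lists was made, and members of 1 enzyme complex are not independent. The lists were chosen with earlier results of these data known, and the shares over all genes are not matched for abundance.

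**Figure D3:**
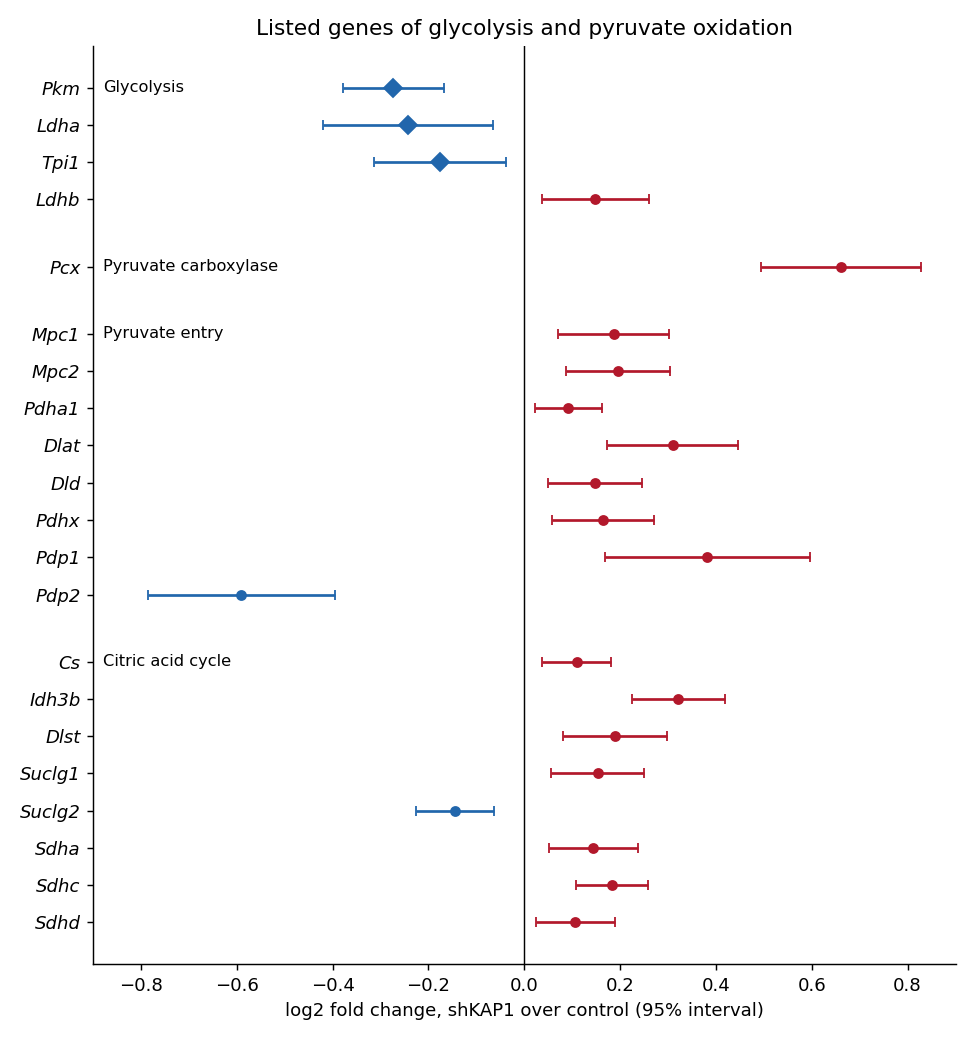
Log2 fold change, shKAP1 over control, with 95% intervals, for the listed genes of glycolysis, pyruvate carboxylase, pyruvate entry into mitochondria and the citric acid cycle. Diamonds are Pkm, Ldha and Tpi1, blue marks lower and red higher in shKAP1. The 3 members lie left of 0, at -0.27, -0.24 and -0.18, whereas Ldhb, Pcx and 14 of the 16 mitochondrial genes lie right of 0.

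Known regulators of the members were looked at by name. Hif1a, the oxygen-regulated factor that induces glycolysis genes under hypoxia, was lower at -0.20 (SE 0.04; DESeq2 adjusted p = 7.23e-06) by the authors' deposited table, and the other 8 genes of its list are not listed. Its median transcript GC content, 41.3%, lies in the lowest quintile over listed genes, in which 74.9% were lower. The part of base composition in the lower Hif1a was not tested. Of 14 hypoxia-induced genes outside glycolysis, such as Vegfa, Bnip3 and Ndrg1, none is listed. None of 9 genes for Myc family and glucose-sensing factors is listed. Over all genes with an adjusted p, 26.3% are listed, and a gene that is not listed has no value here. The part of these regulators in the lower members was not tested.

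The promoter of Ldha is shown because hypoxia factors are known to act there. It is the stretch chr7:46845554-46845803, which overlaps no Ldha exon of M21, before a RefSeq start of the gene, on the plus strand of GRCm38.p6, in a RefSeq promoter window that runs from 250 bases before to 50 after the start. Capitals mark the hypoxia factor core ACGTG, read on both strands. It occurs at 3 places, of which 2 are also the E-box CACGTG, which contains it on both strands.
Ldha promoter: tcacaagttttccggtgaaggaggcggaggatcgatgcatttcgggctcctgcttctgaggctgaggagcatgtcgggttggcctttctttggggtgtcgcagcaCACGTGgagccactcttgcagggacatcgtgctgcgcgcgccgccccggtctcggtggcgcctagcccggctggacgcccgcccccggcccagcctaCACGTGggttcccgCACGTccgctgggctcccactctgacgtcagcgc
Of 32851 mouse promoter windows of 300 bases, 19.6% hold ACGTG and 7.15% CACGTG. The window of the other Ldha start, that of Tpi1 and that of the first Pkm start hold neither, and the window of the other Pkm start holds ACGTG at 2 places and no CACGTG. These are matches of letters in windows of set length and say nothing of binding in these cells.

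Of 7 splicing factors known to bear on the choice between the Pkm exons shown above, 5 were lower, none was higher and 2 are not listed, where 13.7% of all genes with an adjusted p were lower. The transcripts of Hnrnpa1, Hnrnpa2b1, Srsf3 and Ptbp2 lie in the lowest quintile of GC content over listed genes, in which 74.9% were lower. Those of Ptbp1 lie in the highest quintile, in which 29.9% were lower. The part of base composition was not tested. The authors' deposited table gives Hnrnpa1 at -0.39 (SE 0.07; DESeq2 adjusted p = 1.61e-07), Srsf3 at -0.27 (SE 0.05), Ptbp2 at -0.27 (SE 0.05) and Hnrnpa2b1 at -0.21 (SE 0.04). Ptbp1, which with Hnrnpa1 and Hnrnpa2b1 represses the PKM1 exon, stood at -0.16 (SE 0.05; DESeq2 adjusted p = 0.0149) by the authors' deposited table. Whether exon use in Pkm differed between shKAP1 and control cannot be read from values per gene.

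**Figure D4:**
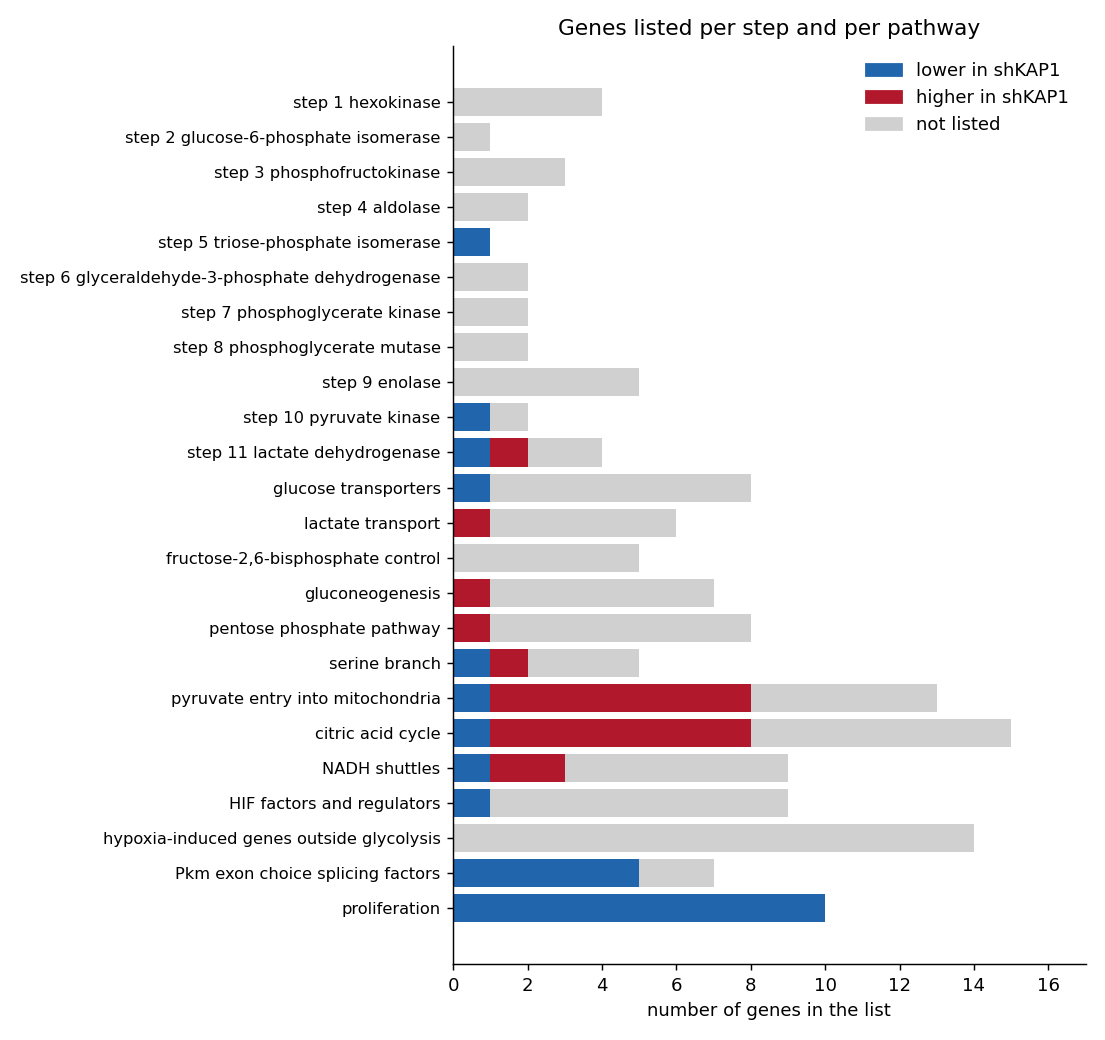
Number of genes per list that were lower (blue), higher (red) or not listed (grey) in shKAP1 against control, for the 11 steps from hexokinase to lactate dehydrogenase and for neighbouring pathways and regulators. Blue or red appears in 3 of the 11 steps, whereas pyruvate entry has 7 higher genes of 13 and the citric acid cycle 7 of 15. Over all genes with an adjusted p, 12.6% were higher and 13.7% lower.

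Proliferation genes and base composition were also set beside the members. All 10 genes of a short proliferation list were lower, against 13.7% of all genes with an adjusted p, with a median of -0.40 on the log2 scale, among them Mki67 at -0.55 (SE 0.05) in the authors' deposited table. The proliferation list was chosen with earlier results of these data known. Direction over listed genes also differed with base composition. In the quintile of lowest GC content 74.9% were lower in shKAP1, and in that of highest GC content 29.9%. Of the proliferation list, Bub1, Ccnb1, Top2a and Pcna lie in the lowest quintile, Mcm2 in the highest and the others between. Median transcript GC content was 54.6% for Pkm and 53.7% for Tpi1, both in the fourth quintile, where 38.7% of listed genes were lower. Ldha, at 51.9%, falls in the third, where 54.4% were lower. The part of proliferation and of base composition in the lower Pkm, Ldha and Tpi1 was not tested.

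Markers of the labelled cell type and of others were set beside these values. Of 8 neural stem cell markers, Vim, Fabp7, Slc1a3 and Nes were higher, at 0.19 to 0.48 on the log2 scale, and 4, among them Sox2 and Pax6, are not listed. None of 5 microglia and 4 endothelial markers is listed. Of 4 mural markers, Acta2 and Tagln were higher, at mean normalized counts of 132.8 and 127.0. Of 5 astrocyte markers, Aldh1l1 alone is listed, higher at 0.29, with 116602 mean normalized counts. Of 6 oligodendrocyte lineage markers, Olig2 alone is listed, higher at 0.20, with 50394. Of 5 neuroblast markers, Dcx alone is listed, lower at -0.62, with 439.6. Over all genes with an adjusted p, 12.6% were higher and 13.7% lower. The marker lists are short, so no change of cell types is read from these counts. Genes not listed have no value here, so the presence of those cells was not measured.

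Copies of these genes elsewhere in the genome could share reads with them. At 95% identity or more over at least 300 bases, the Pkm transcript matched the processed pseudogene Gm6560 (1593 bases at 98.4%), and the Tpi1 transcript matched Tpi-rs11 (310 bases at 97.7%). The Ldha transcript matched 3 such genes, the longest being Gm9247 (1000 bases at 95.6%). None of these copies is listed. The submitters' notes name kallisto but not the annotation, so whether these copies were in it is not known here. How reads were divided among the copies was not tested, and each of the 3 values is uncertain to that extent.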

How the data were processed

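RNA was measured in 7 samples, 4 shKAP1 and 3 control, grouped by library names. The control library names skip a number that the shKAP1 names include. Whether libraries of like number belong together is not known here. Libraries were poly(A)-selected and strand-specific, per the labels' protocols. Per the submitters' processing notes, Trim Galore 0.4.4, kallisto and DESeq2 were used with GRCm38. Further versions, the annotation and the formula of the model were not found in the labels or the file.

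The authors deposited 1 table of genes under an adjusted p of 0.05, with no sample columns. Its columns, per the file headers, are the mean normalized count (a signal), the log2 fold change with its SE, a signed fold (handled as a score), the Wald statistic (a score), the p-value and the adjusted p-value. Nothing was refitted. Library totals are unknown, so no depth or detection limit is given, and the p-values reflect only how these samples spread, which may be technical.

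Adjusted p times rank over p gave 12905 tested genes within 0.01 in 85.2% of lines, a step tested on simulated data. Intervals of 95% assume a normal error. Symbols, positions, GC content and lengths came from GENCODE M21 (3388 of 3389 identifiers matched without version, 3278 with it), promoters from RefSeq GRCm38.p6, and near-identical copies from blastn 2.17.0.

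Members and gene lists were chosen with earlier results of these data known. Named were the members, Trim28, every listed glycolysis gene and up to 4 genes per other list by adjusted p. Qk and the copies were named after their values were seen, as were any further list genes. Some genes of these pathways are not reported here.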

Additional observations from a re-analysis of the deposited data

How the results depend on the processing

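At an adjusted p under 0.01, Pkm stayed a call, whereas Ldha at -0.24 and Tpi1 at -0.18 did not. The Bonferroni limit likewise kept Pkm alone. None of Pkm at -0.27, Ldha and Tpi1 had an interval wholly beyond 1.2-fold or a change of 2-fold. Less the median of listed genes, -0.13, the values were -0.15 for Pkm, -0.11 for Ldha and -0.047 for Tpi1. That median reflects which sign has more listed genes and is no value of no change, so nothing is read from this setting. The 4 listed glycolysis genes became 1 at an adjusted p under 0.01 and at the Bonferroni limit, 0 beyond 1.2-fold or at 2-fold, and stayed 4 with a minimum of 100 mean normalized counts. All listed genes, 3389, became 930 at the Bonferroni limit, 631 beyond 1.2-fold and 82 at 2-fold, by construction fewer. No paired analysis was possible because the deposited values are not split by sample, and leaving out single replicates was not run for the same reason.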

Other observations

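Branches that leave glycolysis or return its NADH to mitochondria were mixed. Of 5 genes of serine synthesis and its folate step, Shmt1, a cytosolic serine hydroxymethyltransferase, was lower at -0.32 (SE 0.07) and the phosphatase gene Psph was higher at 0.22 (SE 0.08), both by the authors' deposited table. Phgdh, which draws carbon from 3-phosphoglycerate, is not listed. Of 9 genes of the NADH shuttles, the aspartate-glutamate carrier genes had opposite signs in the authors' deposited table, Slc25a12 at 0.19 (SE 0.05) and Slc25a13 at -0.34 (SE 0.09), and the aminotransferase gene Got2 stood at 0.14 (SE 0.05).

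Near-identical copies elsewhere in the genome were also found for glycolysis genes that are not listed. Of these 24 genes, 6 matched at least 1 other annotated gene at 95% identity over 300 bases or more, and Gapdh matched 77. Matches to genes whose annotated span overlaps that of the query gene were left out. All 4 listed genes, Pkm, Ldha, Tpi1 and Ldhb, matched at least 1. How reads were shared among the copies was not tested.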
